A study of Mus musculus with 9 samples.

Results

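The myeloid C-type lectin receptors described here are 10 genes, Clec4a1, Clec4a2, Clec4a3, Clec4d, Clec4e, Clec4n, Clec5a, Clec7a, Clec10a and Clec12a. They were chosen by name, and all 10 were found among the 23234 gene symbols of each file. RNA was measured by sequencing in 9 libraries of CD11b+ cells, labelled as monocytes, from peripheral blood of C57BL/6 mice at 8 months of age. All mice carried Yaa, a Y chromosome with a translocated piece of the X chromosome that holds Tlr7, and no group lacked it. The study compared Gr-1+ with Gr-1- monocytes in mice in which Fcgr2, which encodes the inhibitory IgG receptor CD32, was removed in different cells. The Gr-1+ libraries were Fcgr2-/-.Yaa (2 libraries, called null here), CEBPaCre;Fcgr2 fl/fl.Yaa (1 library) and CD19Cre;Fcgr2 fl/fl.Yaa (1 library). The Gr-1- libraries were 1 each of null, CEBPaCre, CD19Cre, CD11cCre;Fcgr2 fl/fl.Yaa and Fcgr2 fl/fl.Yaa without Cre, called floxed. The CEBPaCre driver acts in myeloid cells, the CD19Cre driver in B cells, and the CD11cCre driver in dendritic cells and a share of monocytes. In 7 of the 8 groups of subset and genotype there was a single library. The labels do not say whether libraries came from separate or pooled animals, so each p-value covers only the spread between libraries. As the libraries of a subset differ in genotype, that spread mixes genotype, animal and technique. The spread between mice of the same genotype may not be covered.

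C-type lectin receptors are surface proteins with a carbohydrate recognition fold, and those on myeloid cells bind sugars or lipids of microbes and products of dying cells. Some activate the cell through the kinase Syk and the adaptor Card9, either by a tyrosine motif in their own tail or by pairing with an adaptor such as the Fc receptor gamma chain (Fcer1g) or DAP12 (Tyrobp). Others carry an inhibitory tyrosine motif and recruit the phosphatases SHP-1 (Ptpn6) or SHP-2 (Ptpn11). The gamma chain also serves activating Fc receptors, which CD32 opposes. Circulating monocytes of the mouse fall into a Gr-1+ (Ly6C high) classical subset and a Gr-1- (Ly6C low) patrolling subset.

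Libraries had 9783 to 10258 genes at 1 FPKM (fragments scaled by transcript length and library size) or more. Depth in reads is unknown, and the depth relative to the floxed library ran from 0.705 to 2.664. The monocyte genes Csf1r (389.8 to 1191 FPKM over all libraries) and Itgam (61.7 to 185.7 FPKM) were present in every library. Ccr2, a classical monocyte gene, was at 552 ± 115 FPKM (SD, n = 4) in Gr-1+ against 38.0 ± 17.1 FPKM (SD, n = 5) in Gr-1- libraries. Fcgr2b, as Fcgr2 is listed, did not follow the genotype labels: it stood at 106 to 201 FPKM in the Gr-1+ libraries, 3 of the 4 labelled as deleted, and the library labelled null was the highest Gr-1- library at 145 FPKM, against 74.9 FPKM in the floxed library. Genotypes are therefore given as labelled. The 2 CD19Cre libraries stood apart from the other 7, with 1.94% and 2.24% of summed FPKM in ribosomal protein genes against 3.56% to 7.47%. Most of the neutrophil genes tested were also higher in Gr-1+ libraries. The summed FPKM of 19 neutrophil genes was 766 to 2414 in Gr-1+ and 73.1 to 157 in Gr-1- libraries, and 13 of the 16 tested were higher in Gr-1+. The sum was led by S100a8. Of the defining neutrophil genes, Camp was 6.11 to 38.9 FPKM in Gr-1+ libraries and listed at 0 in all 5 Gr-1- libraries. Ltf was 1.90 to 18.4 FPKM against 0 to 0.156, and Mpo was low except in Gr-1+ CD19Cre (5.68 FPKM). Retnlg overlapped, at 13.9 to 127 FPKM in Gr-1+ against 8.73 to 75.0 FPKM in Gr-1- (limma adjusted p = 0.658). Ly6g was not among the symbols used. Summed FPKM of 13 NK cell genes was 2.28 to 7.65 in Gr-1+ and 43.3 to 867 in Gr-1- libraries. The part of these cells in the receptor values was not tested. In sorted bulk samples, fewer cells of a type and less RNA per cell cannot be told apart.

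Of the 10 receptors, 8 had a RefSeq promoter entry (GRCm38.p6). The 250 bases before each start were searched on both strands for GAGGAA, the core of many sites of the myeloid factor PU.1, and for TTGCNNAA, which resembles sites of the C/EBP factors. GAGGAA was found for 7 of the 8 receptors and in 23.3% of all 32851 promoters in the table. TTGCNNAA was found for 2 of the 8, Clec4e and Clec12a, and in 9.56% of all promoters. The 8 receptors had 10 promoter entries, and a receptor was counted if any of its entries matched. The shares of all promoters are counted per entry, so the units differ. Clec4a3 had an entry without GAGGAA beside an entry with it. The stretches printed are those of Clec5a and Clec7a, which were higher in Gr-1+ cells, and of Clec4e and Clec4a1, whose subset differences did not pass the test, so that the letters beside both kinds of gene can be compared. Capitals mark GAGGAA or its reverse complement TTCCTC, and in Clec4e also TTGTGCAA, which reads as TTGCNNAA on the other strand. Each runs 5′ to 3′ on the strand of the gene, Clec5a from chr6:40585835-40585906 (minus), Clec7a from chr6:129472850-129472895 (minus), Clec4e from chr6:123289902-123290014 (minus) and Clec4a1 from chr6:122921611-122921686 (plus).
Clec5a: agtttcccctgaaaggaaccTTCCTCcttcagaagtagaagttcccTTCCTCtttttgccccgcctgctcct
Clec7a: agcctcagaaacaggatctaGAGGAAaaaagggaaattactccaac
Clec4e: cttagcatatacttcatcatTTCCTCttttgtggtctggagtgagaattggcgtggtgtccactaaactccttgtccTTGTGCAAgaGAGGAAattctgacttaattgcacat
Clec4a1: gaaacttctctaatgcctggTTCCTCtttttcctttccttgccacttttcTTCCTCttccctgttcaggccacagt
The GAGGAA letters stood beside genes that were higher in Gr-1+ cells and beside genes that were not, and Clec4a2, which was higher in Gr-1+ cells, had neither motif in its window. A match in letters is a description and not a binding site.

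Between the subsets, 4 of the 10 receptors were higher in Gr-1+ monocytes (Clec5a, Clec4a2, Clec7a and Clec12a), 1 was higher in Gr-1- monocytes (Clec4n) and 5 did not pass the test. The test was limma with Benjamini-Hochberg adjustment over all 10436 genes tested, and a gene was called at an adjusted p at or under 0.05. Of all genes tested, 8.84% were called toward Gr-1+ and 5.95% toward Gr-1-, which is 923 and 621 genes. The split was 1011 and 958 after median ratio scaling and 1061 and 938 after quantile normalization. The median difference of the 10 receptors was 0.51 on the log2(FPKM + 1) scale, Gr-1+ minus Gr-1-, against 0.089 over all genes. Levels of the 2 subsets did not overlap for 6 receptors. Gr-1+ was higher for 5 of them, against 10.2% of all genes, and Gr-1- was higher for 1, Clec4a3, against 6.26% of all genes. Within each of the 3 genotypes that had both subsets (null, CEBPaCre and CD19Cre), each receptor had one sign of the mean difference in log2(FPKM + 1), 5 of them positive and 5 negative. For Clec4d in null that difference was -0.02 only, and the mean FPKM there was higher in Gr-1+, at 11.6 against 9.98. Such signs were not counted over all genes, so their agreement is a description and not a result about the receptors. CEBPaCre and CD19Cre had 1 library per subset.

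**Figure D1:**
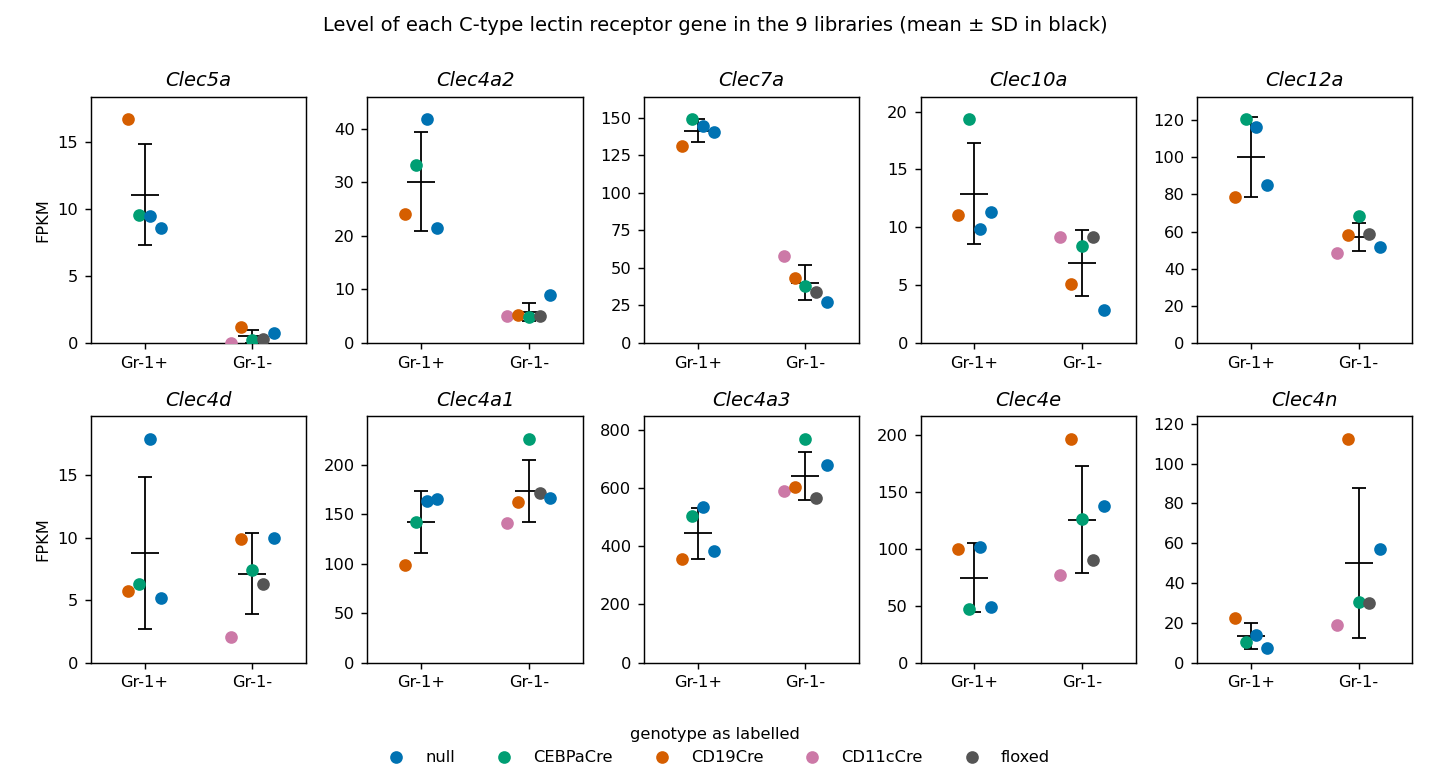
FPKM of each receptor gene (vertical axis, linear, from 0) in the 4 Gr-1+ and 5 Gr-1- libraries, 1 point per library, coloured by the labelled genotype, with the mean ± SD of each subset in black. Clec5a, Clec4a2, Clec7a, Clec10a and Clec12a have every Gr-1+ point above every Gr-1- point, and Clec4a3 has the reverse.

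Clec5a (MDL-1), an activating receptor that pairs with DAP12, had the largest log2 difference between the subsets among the receptors. It stood at 16.7 FPKM in the CD19Cre, 9.52 in the CEBPaCre and 9.45 and 8.57 in the null Gr-1+ libraries. In the Gr-1- libraries it was listed at 0 in CD11cCre and stood at 1.20 FPKM in CD19Cre, 0.209 in CEBPaCre, 0.299 in floxed and 0.719 in null. Every Gr-1+ library was thus well above every Gr-1- library, and CD19Cre was the highest library in both subsets. The difference was 3.03 ± 0.27 (log2 of FPKM + 1, SE), 8.18-fold on that scale, with a limma adjusted p of 3.3e-05. Because the Gr-1- levels are near or below the added 1 FPKM, that fold understates the ratio of the levels. The gene of its partner, Tyrobp, was at 3217 ± 839 FPKM (SD, n = 4) in Gr-1+ against 3239 ± 358 FPKM (SD, n = 5) in Gr-1- libraries, a log2 difference of -0.04 (limma adjusted p = 0.941).

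Clec7a (dectin-1), the receptor for fungal beta-glucan, signals through a single tyrosine motif of its own tail to Syk and Card9. It was even across the Gr-1+ libraries, at 131 FPKM in CD19Cre, 149 in CEBPaCre and 144 and 140.4 in null, a ratio of 1.14 between highest and lowest. In Gr-1- libraries it was 58.1 FPKM in CD11cCre, 43.2 in CD19Cre, 38.2 in CEBPaCre, 34.2 in floxed and 27.1 in null. The subsets were far from overlapping, with CD11cCre the highest and null the lowest of the Gr-1- libraries. The difference was 1.83 ± 0.22 (log2, SE), 3.56-fold higher in Gr-1+, with a limma adjusted p of 2.6e-04. Within genotypes it ran from 1.58 in CD19Cre to 2.35 in null.

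The next receptors, all of the cluster on chromosome 6, pair with the Fc receptor gamma chain: Clec4n (dectin-2), which binds mannans, Clec4e (Mincle), which binds mycobacterial cord factor and products of dead cells, and Clec4d (MCL), which associates with Mincle. Clec4n was the only one of the 10 receptors called higher in Gr-1- monocytes. In Gr-1- libraries it was 112 FPKM in CD19Cre, 57.3 in null, 30.6 in CEBPaCre, 30.05 in floxed and 19.0 in CD11cCre. In Gr-1+ libraries it was 22.3 FPKM in CD19Cre, 14.0 and 7.34 in null and 10.3 in CEBPaCre. Thus 4 of the 5 Gr-1- libraries lay above all Gr-1+ libraries, CD11cCre lay below the Gr-1+ CD19Cre library, and CD19Cre was the highest library of each subset. The difference was -1.64 ± 0.47 (log2, Gr-1+ minus Gr-1-, SE), 3.11-fold higher in Gr-1-, with a limma adjusted p of 0.0388. The call was lost without any one of 5 libraries: Gr-1+ CEBPaCre (0.102), Gr-1+ null 1 (0.0732), Gr-1+ null 2 (0.108), Gr-1- CEBPaCre (0.0557) and Gr-1- null (0.0853), the values being limma adjusted p.

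Clec4e had the same direction in each genotype but overlapped between the subsets. It was 197 FPKM in CD19Cre, 137 in null, 127 in CEBPaCre, 89.9 in floxed and 77.0 in CD11cCre Gr-1- libraries. In Gr-1+ libraries it was 99.9 FPKM in CD19Cre, 101.8 and 49.3 in null and 47.4 in CEBPaCre. The floxed and CD11cCre libraries, which have no Gr-1+ counterpart, were the Gr-1- libraries that lay within the Gr-1+ range. The difference was -0.76 ± 0.34 (log2, SE; limma adjusted p = 0.176), and with the genotype as a block -1.09 ± 0.26 (limma adjusted p = 0.0266).

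Clec4d was low in all libraries and did not differ beyond its spread. It was 17.9 and 5.21 FPKM in null, 6.29 in CEBPaCre and 5.70 in CD19Cre Gr-1+ libraries. In Gr-1- libraries it was 9.98 FPKM in null, 9.88 in CD19Cre, 7.40 in CEBPaCre, 6.32 in floxed and 2.09 in CD11cCre. The Gr-1+ null 1 library alone was above all others, and it also had the highest sum of the neutrophil genes, 2414 FPKM. That sum was led by S100a8, and the defining neutrophil genes peaked in other Gr-1+ libraries. Camp was 18.5 FPKM in null 1 against 38.9 in CD19Cre, Ltf 7.32 against 18.4 and Mpo 0.321 against 5.68. Retnlg was 29.3 FPKM in null 1 against 127 in CEBPaCre. The part of neutrophils in the Clec4d value was not tested. The difference was 0.23 ± 0.43 (log2, SE; limma adjusted p = 0.786), and with the genotype as a block it had the opposite sign, -0.28, with a limma adjusted p of 0.621. The gamma chain gene Fcer1g, the shared partner of these receptors, was at 2608 ± 598 FPKM (SD, n = 4) in Gr-1+ against 4175 ± 489 FPKM (SD, n = 5) in Gr-1- libraries. Its subsets did not overlap, and its log2 difference of -0.70 had a limma adjusted p of 0.0707.

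Of the receptors with an inhibitory motif, Clec4a2 and Clec12a were both higher in Gr-1+ monocytes. Clec4a2 (DCIR, also called DCIR1) was 41.9 and 21.5 FPKM in null, 33.2 in CEBPaCre and 24.03 in CD19Cre Gr-1+ libraries. In Gr-1- libraries it was 8.90 FPKM in null, 5.19 in CD19Cre, 4.99 in CD11cCre, 4.97 in floxed and 4.90 in CEBPaCre. The Gr-1- libraries other than null were nearly level, and all were below every Gr-1+ library. The difference was 2.18 ± 0.24 (log2, SE), 4.54-fold, with a limma adjusted p of 1.4e-04. Clec4a2 shared 6.83% of its 50-base sequences with other genes, 3.85% with Clec4a4, so part of its reads could be split. Clec4a4 itself was at 9.30 ± 1.63 FPKM (SD, n = 4) in Gr-1+ against 9.13 ± 2.58 FPKM (SD, n = 5) in Gr-1- libraries.

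Clec12a (MICL), which binds uric acid crystals from dying cells, was 120.6 FPKM in CEBPaCre, 116 and 85.1 in null and 78.7 in CD19Cre Gr-1+ libraries. In Gr-1- libraries it was 68.4 FPKM in CEBPaCre, 58.4 in floxed, 58.1 in CD19Cre, 51.7 in null and 48.2 in CD11cCre. The subsets did not overlap, but the lowest Gr-1+ library, CD19Cre, lay close to the highest Gr-1- library, CEBPaCre. The difference was 0.79 ± 0.20 (log2, SE), 1.73-fold, with a limma adjusted p of 0.0229. Without any one of 4 libraries the call was lost: Gr-1+ CEBPaCre (0.0849), Gr-1+ null 1 (0.0771), CD11cCre (0.0604) and Gr-1- null (0.0598), each a limma adjusted p. It was also lost under quantile normalization (limma adjusted p = 0.0535).

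Clec4a3 and Clec4a1 (DCIR3 and DCIR4) are relatives of Clec4a2 that lack its inhibitory motif, and they had the highest mean FPKM of the 10 receptors in both subsets, Clec4a1 in Gr-1+ only by a margin within its spread over Clec7a. Clec4a3 was 769 FPKM in CEBPaCre, 679 in null, 602 in CD19Cre, 589 in CD11cCre and 564 in floxed Gr-1- libraries. In Gr-1+ libraries it was 533 and 383 FPKM in null, 505 in CEBPaCre and 357 in CD19Cre. All Gr-1- libraries were above all Gr-1+ libraries, but by a small margin next to the spread. The difference was -0.54 ± 0.21 (log2, SE; limma adjusted p = 0.124), and with the genotype as a block -0.64 ± 0.19 (limma adjusted p = 0.0491). It also passed under quantile normalization (limma adjusted p = 0.0164) and with library weights (limma adjusted p = 0.0495). Clec4a1 was at 142 ± 31.3 FPKM (SD, n = 4) in Gr-1+, from 98.3 in CD19Cre to 166 in null 2. It was at 174 ± 31.6 FPKM (SD, n = 5) in Gr-1-, from 141 in CD11cCre to 226 in CEBPaCre. Its subsets overlapped, with a difference of -0.30 ± 0.22 (log2, SE; limma adjusted p = 0.448).

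Clec10a (MGL1), which takes up glycoproteins with terminal galactose or N-acetylgalactosamine, was higher in every Gr-1+ library than in any Gr-1- library. It was 19.4 FPKM in CEBPaCre, 11.3 and 9.86 in null and 11.02 in CD19Cre Gr-1+ libraries. In Gr-1- libraries it was 9.15 FPKM in floxed, 9.12 in CD11cCre, 8.38 in CEBPaCre, 5.10 in CD19Cre and 2.83 in null. The gap between the subsets was narrow, from 9.15 to 9.86 FPKM, and null was the lowest Gr-1- library. The difference was 0.86 ± 0.32 (log2, SE; limma adjusted p = 0.105), and with the genotype as a block 1.27 ± 0.16 (limma adjusted p = 0.00258). Its neighbour and paralog Mgl2, with which it shared 8.63% of its 50-base sequences, was at 1.87 FPKM in Gr-1+ against 3.11 FPKM in Gr-1- libraries on average (log2 difference -0.44, limma adjusted p = 0.424). Clec10a and Mgl2 also mark some dendritic cells, and summed FPKM of 16 dendritic cell genes was 211.6 to 399.7 in Gr-1+ and 123 to 324 in Gr-1- libraries. As with Clec10a, the highest of these sums was in the Gr-1+ CEBPaCre library and the lowest in the Gr-1- null library. The sum was led by Irf8, and of 11 genes tested, 2 were called toward Gr-1+ and 2 toward Gr-1-. Zbtb46 averaged 0.331 FPKM in Gr-1+ against 1.995 FPKM in Gr-1- libraries (limma adjusted p = 0.00886). Cd209a averaged 3.75 and 27.16 FPKM in the same order (limma adjusted p = 0.0274). Flt3 was highest in Gr-1+ null 1 (8.968 FPKM) and Xcr1 in Gr-1- floxed (4.103 FPKM). The part of dendritic cells in the Clec10a values was not tested.

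With the genotype as a block, which compares the subsets within null, CEBPaCre and CD19Cre only, 8 of the 10 receptors passed the test. Clec5a, Clec4a2, Clec7a, Clec12a and Clec10a passed toward Gr-1+, and Clec4n, Clec4e and Clec4a3 toward Gr-1-. The same fit called 16.0% of all genes toward Gr-1+ and 9.97% toward Gr-1-. The CD11cCre and floxed libraries carry no information on the subsets in this fit.

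**Figure D2:**
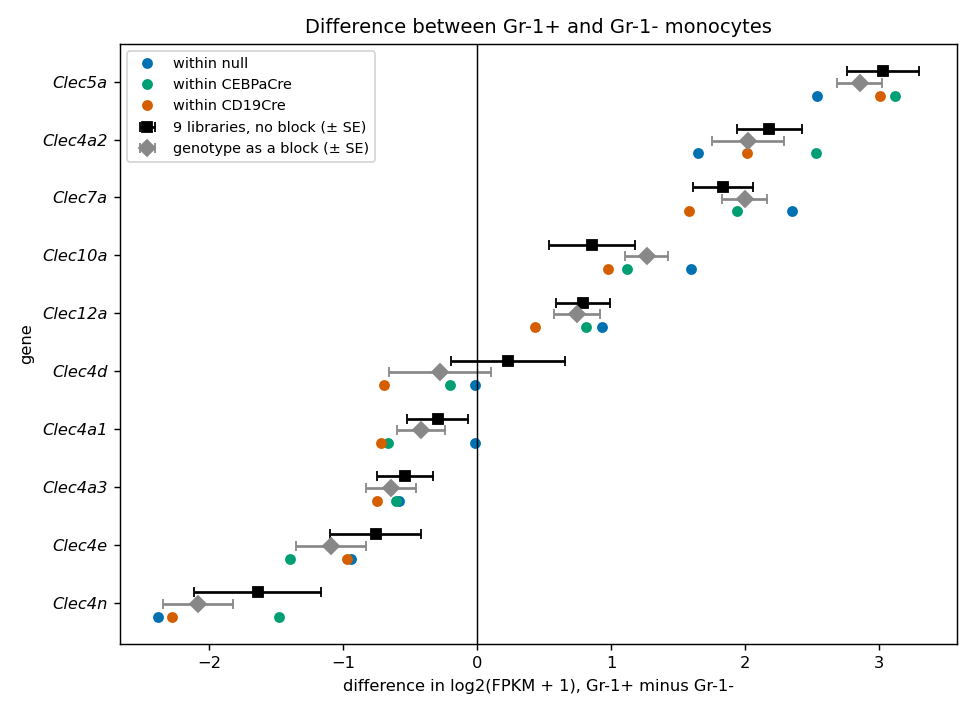
Difference in log2(FPKM + 1), Gr-1+ minus Gr-1- (horizontal axis), for each receptor from all 9 libraries (black squares ± SE), with the genotype as a block (grey diamonds ± SE) and within each genotype with both subsets (coloured points, no error). The top 5 receptors are to the right of 0 in every genotype, the other 5 to the left, and Clec4d changes sign between the 2 fits.

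By level, the order of the receptors differed between the subsets below the first pair. FPKM is scaled by transcript length, but the annotation behind the lengths is not given and the RNA was amplified. How evenly different genes compare on this scale was not tested, so the order and the shares are those of the listed FPKM. Clec4a3 was first in both, with 42.3% to 48.4% of the summed FPKM of the 10 receptors in Gr-1+ and 50.3% to 62.1% in Gr-1- libraries. In Gr-1+ monocytes Clec4a1 (142 FPKM) and Clec7a (141 FPKM) followed and did not differ beyond their spread, then Clec12a at 100.2 and Clec4e at 74.6, whose ranges overlapped. The lowest Clec4a1 value, 98.3 FPKM, lay below the highest of Clec12a (120.6 FPKM) and of Clec4e (101.8 FPKM). Clec4a2 at 30.2 FPKM stood next, its lowest library just under the highest of Clec4n. Clec4n at 13.5, Clec10a at 12.9, Clec5a at 11.1 and Clec4d at 8.78 FPKM overlapped one another. In Gr-1- monocytes Clec4a1 at 174 and Clec4e at 125.5 FPKM followed Clec4a3 and overlapped in range. Clec12a at 57.0, Clec4n at 49.9 and Clec7a at 40.2 FPKM came next and overlapped one another. The highest Clec4n value, 112 FPKM, also lay above the lowest of Clec4e, 77.0 FPKM. Clec4d at 7.14, Clec10a at 6.91 and Clec4a2 at 5.79 FPKM overlapped, and Clec5a was last at 0.485 ± 0.477 FPKM (SD, n = 5). The summed level of all 10 was 979 ± 144 FPKM (SD, n = 4) in Gr-1+ against 1107 ± 144 FPKM (SD, n = 5) in Gr-1- libraries, with ranges that overlapped.

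On chromosome 6, 9 protein-coding genes follow one another in the order Clec4a1, Clec4a3, Clec4a4, Clec4b1, Clec4a2, Clec4b2, Clec4n, Clec4d and Clec4e (RefSeq, GRCm38). Along this row the subset difference did not keep one sign. Clec4a2, the 1 receptor of the row called higher in Gr-1+, stood 2 places from Clec4n, the 1 called higher in Gr-1-. Clec4b2, between them, reached at most 0.24 FPKM and was not tested. Clec4b1, an activating relative, was at 12.2 FPKM in Gr-1+ against 18.6 FPKM in Gr-1- libraries on average (log2 difference -0.56, limma adjusted p = 0.252). Clec5a, Clec7a and Clec12a lie elsewhere on chromosome 6, and Clec10a lies next to Mgl2 on chromosome 11.

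**Figure D3:**
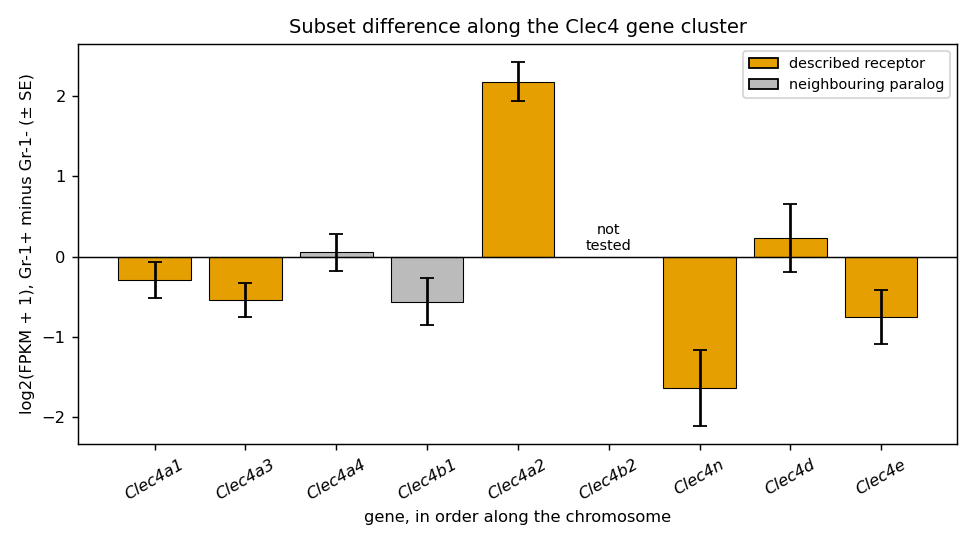
Difference in log2(FPKM + 1), Gr-1+ minus Gr-1- (vertical axis, bars ± SE from the fit over 9 libraries), for the 9 neighbouring genes in their order on chromosome 6, with the described receptors in orange and other paralogs in grey. Clec4a2 at 2.18 and Clec4n at -1.64 stand on opposite sides of 0 with Clec4b2, not tested, between them.

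By genotype, 0 of the 10 receptors were called between the libraries labelled as lacking Fcgr2 in myeloid cells (null and CEBPaCre, 5 libraries) and those labelled as keeping it (CD19Cre and floxed, 3 libraries), with the subset as a covariate. The CD11cCre library was left out of this fit. Over all genes limma also called 0.0%, and 1470 of 10429 genes but 0 receptors had an unadjusted p at or under 0.05. Log2 differences, deleted minus intact, ran from -0.72 ± 0.44 (SE) for Clec4n to 0.41 ± 0.22 (SE) for Clec4a1, with limma adjusted p from 0.406 to 0.87. Without the floxed library 2 receptors were called, Clec4n (limma adjusted p = 0.0230) and Clec5a (limma adjusted p = 0.0348). Both were lower in the deleted group, as were 16.8% of all genes (1751 of 10415), with 800 called higher. The intact group was then CD19Cre alone, so this is the same fit as the CD19Cre comparison given next. The interaction of subset and deletion was called for 0 of the 10 receptors, against 0.0863% of all genes, 9 in all, and 0 receptors had an unadjusted p at or under 0.05. Because Fcgr2b did not follow the labels, these groups stand for labels only.

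The CD19Cre libraries, in which the label removes Fcgr2 in B cells, were also set against null and CEBPaCre (2 against 5 libraries, subset as covariate). Of the 10 receptors, Clec4n and Clec5a were called, both higher in CD19Cre, which is near the 16.8% of all genes called higher there. Clec4n was 22.3 FPKM in the Gr-1+ CD19Cre library against 7.34 to 14.0 in the 3 Gr-1+ libraries of null and CEBPaCre, and 112 FPKM against 30.6 and 57.3 in Gr-1- libraries. Its difference was 1.22 ± 0.30 (log2, SE; limma adjusted p = 0.0230), and CD19Cre was the highest in both subsets. Clec5a was 16.7 FPKM against 8.57 to 9.52 in Gr-1+ and 1.20 FPKM against 0.209 and 0.719 in Gr-1- libraries, a difference of 0.71 ± 0.20 (log2, SE; limma adjusted p = 0.0348). The Clec5a call was lost in 8 of 12 alternatives, among them a pseudocount of 0.1 FPKM (0.0566) and leaving out Gr-1+ null 1 (0.0572), Gr-1+ null 2 (0.0684) or Gr-1- CEBPaCre (0.0600), each a limma adjusted p. Clec4e was higher in CD19Cre by value but did not pass (0.63 ± 0.30, SE; limma adjusted p = 0.147). Clec4a1 was lower in CD19Cre by value, at 98.3 FPKM against 142 to 166 in Gr-1+ and 162 against 166 and 226 in Gr-1-, but did not pass (-0.47 ± 0.21, SE; limma adjusted p = 0.122).

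These values depend on the scaling of the CD19Cre libraries. The median difference of all genes was 0.16 as deposited, -0.04 after median ratio scaling and 0.06 after quantile normalization, and the split of called genes went from 1751 higher and 800 lower to 1494 and 1494, and to 1552 and 1070. After median ratio scaling Clec4n (limma adjusted p = 0.0589) and Clec5a (limma adjusted p = 0.0737) were not called. Clec4a1 (-0.71, limma adjusted p = 0.0254), Clec4a3 (-0.56, limma adjusted p = 0.0247) and Clec12a (-0.47, limma adjusted p = 0.0395) were then called lower in CD19Cre, all log2 differences. Quantile normalization called the same 3 receptors lower (limma adjusted p = 0.0195, 0.0294 and 0.0149), kept Clec5a and lost Clec4n (limma adjusted p = 0.0835). Without either CD19Cre library, 0 receptors were called.

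**Figure D4:**
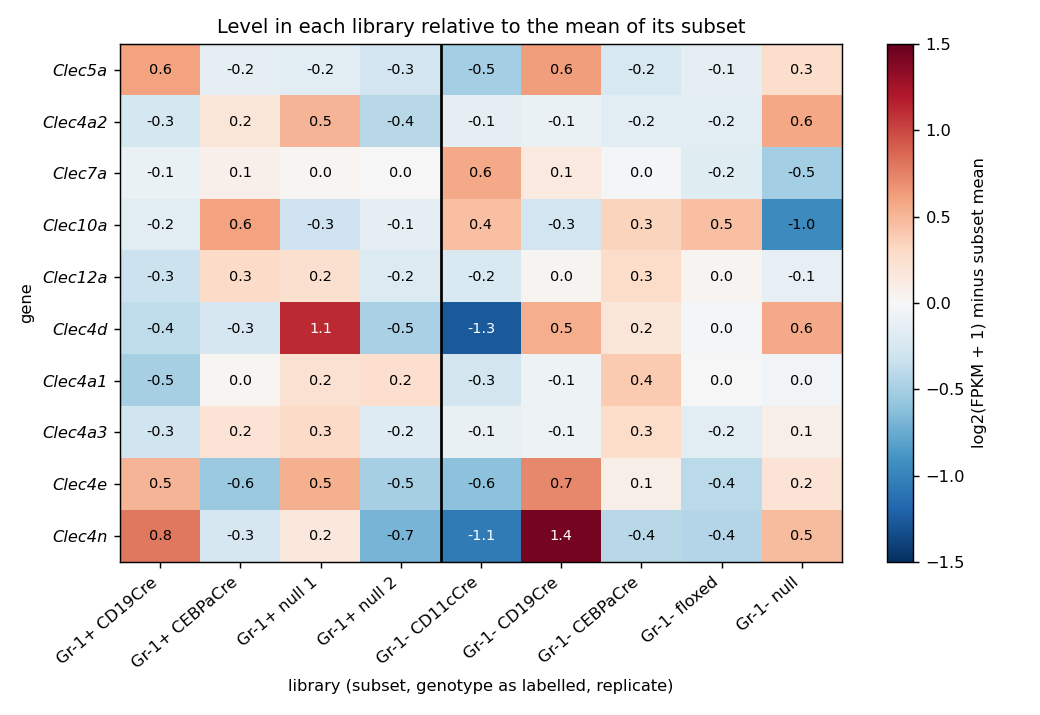
Level of each receptor in each library as log2(FPKM + 1) minus the mean of its subset (colour and printed value), with receptors in rows, libraries in columns and a line between the Gr-1+ and Gr-1- libraries. Clec4n, Clec4e and Clec5a are above the mean in both CD19Cre libraries. In CD11cCre all receptors other than Clec7a and Clec10a are below the mean.

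Among the Gr-1- libraries, CD11cCre had the lowest values of the gamma chain receptors Clec4n (19.0 FPKM), Clec4e (77.0 FPKM) and Clec4d (2.09 FPKM). This was not particular to those receptors, since Clec4a1 (141 FPKM), Clec12a (48.2 FPKM) and Clec5a (listed at 0) were also lowest in CD11cCre. Clec7a (58.1 FPKM) was highest in the CD11cCre library. It is a single library, so no test was made, and it also had the highest summed NK cell RNA, 867 FPKM. Within the subsets, deviations of Clec4e and Clec4n from the subset means went together over the 9 libraries (Pearson r = 0.87), as did those of Clec4n and Clec5a (r = 0.95), while Clec4n and Clec10a went opposite ways (r = -0.60). These are descriptions over libraries that differ in genotype and depth, and CD19Cre was the highest library of both subsets for Clec4n and for Clec5a.

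The receptors' signalling genes and relatives, from lists of textbook genes, gave the following counts between the subsets, to be read beside the 8.84% of all genes called toward Gr-1+ and 5.95% toward Gr-1-. Of 38 tested genes for adaptors and activating signalling, 8 were called, all toward Gr-1-, and 30 were not, with a median log2 difference of -0.22 against 0.089 over all genes. With the genotype as a block, 13 of the 38 were called, 2 toward Gr-1+ and 11 toward Gr-1-, beside 16.0% and 9.97% of all genes. Called genes included Fyn, a Src family kinase (log2 difference -2.42, limma adjusted p = 4.2e-05), and Pik3ap1, an adaptor of phosphoinositide 3-kinase (-2.06, limma adjusted p = 0.00189). They also included Nfkb1, a subunit of NF-kappaB (-0.89, limma adjusted p = 0.0125). The core of the pathway did not pass: Syk was at 65.8 ± 13.4 FPKM (SD, n = 4) in Gr-1+ against 79.1 ± 22.2 FPKM (SD, n = 5) in Gr-1- libraries. Card9 was at 12.6 ± 4.14 and 10.8 ± 2.58 FPKM in the same order (limma adjusted p = 0.634 for Syk and 0.681 for Card9). Of 17 inhibitory phosphatases and adaptors, 4 were higher in Gr-1- and 0 in Gr-1+, with a median of -0.52. Those 4 were Dok1 (-1.14), Cblb (-1.14), Ptprj (-0.79) and Ptpn11 (-0.76), all log2 differences. Ptprj and Ptpn11 overlapped between the subsets, each with a limma adjusted p of 0.0395. Under the genotype block, 1 of the 17 was called toward Gr-1+ and 5 toward Gr-1-. Ptpn6, the phosphatase SHP-1, was at 446 ± 154 and 650 ± 213 FPKM (limma adjusted p = 0.285), and Inpp5d, the phosphatase SHIP-1, at 57.8 ± 12.6 and 65.8 ± 23.6 FPKM (limma adjusted p = 0.85).

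Of 14 tested target genes of lectin receptor signalling, 1 was called toward Gr-1+, 4 toward Gr-1- and 9 in neither direction, with a median of -0.62. Il1b, an inflammatory cytokine, was at 89.1 ± 65.3 FPKM (SD, n = 4) in Gr-1+ against 457 ± 149 FPKM (SD, n = 5) in Gr-1- libraries, with no overlap (log2 difference -2.57, limma adjusted p = 0.0037). Tnf (-1.96, limma adjusted p = 0.00331) and Il10 (-2.53, limma adjusted p = 0.00356) went the same way, and the chemokine gene Ccl2 was the 1 higher in Gr-1+ (3.15, limma adjusted p = 0.0023). Of 18 cofactors and ligands, 4 were higher in Gr-1+ and 0 in Gr-1-, with a median of 0.33. They were Lgals9, which encodes a galectin that binds dectin-1 (2.62), Anxa1, whose protein on dying cells binds dectin-1 (1.93), Vim (1.92) and Fcgr3 (1.56), as log2 differences. Under the genotype block, 5 cofactors and ligands were called toward Gr-1+ and 1 toward Gr-1-, and of the targets 2 and 4. Of 29 other C-type lectin genes tested, out of 67 in the files, 4 were called toward Gr-1+ and 6 toward Gr-1-. The other 19 were called in neither direction, and the median was -0.27. Cd93 was among those higher in Gr-1+ (log2 difference 2.63, limma adjusted p = 6.3e-04). Cd72 (-2.53) and Klrd1 (-2.79), a lectin of NK cells, were higher in Gr-1-, where NK cell RNA was also higher.

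Over the 9 libraries, the genes with levels most like each receptor were ranked by Pearson r of log2(FPKM + 1) among 6621 genes. They included Gypc (r = 0.986) for Clec7a, C1rl (0.994) and Cav2 (0.991) for Clec5a, and Prtn3 and Ccl6 (0.979 each) for Clec4a2. For Clec12a they were Asna1 (0.982) and Igbp1 (0.979), and for Clec10a Ifi27l2a (0.967) and Irgm1 (0.945). For Clec4n they were Adora2a (0.958) and Tnip3 (0.953), and for Clec4e Lrrc57 (0.954) and C5ar1 (0.947). For Clec4a3 they were Dusp12 (0.96) and Myl12b (0.952), for Clec4a1 Pigf (0.952) and Mink1 (0.948), and for Clec4d Dram2 (0.901) and Prorsd1 (0.899). All 9 points share the division into subsets, so the values are a description and carry no p.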

How the data were processed

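The deposited values are FPKM per gene symbol, 1 file per library, made by the authors with TopHat2 2.0.8 and Cufflinks 2.1.1 on mm9, per the submitters' processing notes; the annotation and settings are not given in the sources used here. Per the labels' protocols, RNA from sorted cells was extracted with Trizol and amplified with a SMART-Seq v4 Ultra Low Input kit. No counts are given, so no counting intervals were made.

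Differences were fitted with limma 3.58.1 (lmFit, eBayes with a trend) in R 4.3.3 on log2(FPKM + 1), for genes averaging 1 FPKM or more across the 9 libraries and above 0 in at least 2 fitted libraries, with Benjamini-Hochberg adjustment over all genes. All 10 receptors passed this filter. Folds are on the FPKM + 1 scale, which understates low genes. The fit was tested on simulated data. Sequences shared between genes were counted as 50-base words of GENCODE M21 transcripts.

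Pairing was checked by correlating deviations from the subset means over 10436 genes: r was 0.593 for CD19Cre, 0.194 for CEBPaCre and 0.258 and 0.156 for null, against -0.384 to 0.254 for libraries of other genotypes. The labels name no shared animal, and this pairing comes from the genotype. Named genes were the 10 receptors, up to 4 called genes of each list with the smallest p, proximal signalling genes, close paralogs, and the 2 genes most like each receptor averaging 5 FPKM or more. The receptors and lists were chosen with earlier results of these data known. A few results picked by this rule are not reported here.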

Additional observations from a re-analysis of the deposited data

Results flagged for a closer look

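Of 20 groups checked (10 receptors in 2 subsets), 4 held a library set apart from the others of its subset. The measure was Dixon's ratio of the gap to the range, at the 95% critical value (0.829 for 4 libraries, 0.710 for 5). For normal values from like libraries, that level sets apart about 1 in 20 groups. Here the libraries of a subset differ in genotype, and the share over all genes was not counted. The count is therefore a description and not a result about the receptors. Clec4a2 was 8.90 FPKM in the Gr-1- null library, against at most 5.19 FPKM in the other 4 (ratio 0.929). Clec4d was 17.9 FPKM in the Gr-1+ null 1 library, against at most 6.29 FPKM in the other 3 (ratio 0.915). Clec5a was 16.7 FPKM in the Gr-1+ CD19Cre library, against at most 9.52 FPKM (ratio 0.883). Clec10a was 19.4 FPKM in the Gr-1+ CEBPaCre library, against at most 11.3 FPKM (ratio 0.851).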

How the results depend on the processing

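Clec4a2, Clec5a and Clec7a were called between the subsets in all 16 alternatives, with limma adjusted p of at most 0.00311, 5.4e-04 and 0.00159. The count of receptors called between the subsets was 5, 3 to 5 when each library was left out in turn, and 8 with the genotype block; without Gr-1+ CEBPaCre, Gr-1+ null 1 or Gr-1- null it was 3. Clec4n was also not called with no filter on the mean (limma adjusted p = 0.0754). For deleted against intact the count was 0, and 0 to 2 with each library left out. Library weights called 340 genes higher and 333 lower in that comparison, with 0 receptors among them. For CD19Cre the count was 2, 1 with a pseudocount of 0.1 FPKM, 0 with no filter, 4 under quantile normalization and 0 to 2 with each library left out. It was 0 without either CD19Cre library and 1 without Gr-1+ null 2 or Gr-1- CEBPaCre. Without Gr-1+ null 1 it was 2 again, with Clec4e (limma adjusted p = 0.0351) in place of Clec5a. For the interaction it stayed at 0 in the 12 alternatives that could be fitted; without the Gr-1+ CD19Cre library it could not be estimated. Interaction calls over all genes were 5 higher and 4 lower, and 1 and 4 under either scaling. Adaptors and activating signalling went from 8 called genes to 13 with the genotype block. No paired analysis by replicate number was possible because the groups share a single number. The cause of these changes was not tested. Genes under about 1 FPKM, as Clec5a in Gr-1- libraries, are limited by depth.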
